A study of Homo sapiens with 18 samples.

Results

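The genes described here are 10 transcription factors of the immediate early response: FOS, FOSB, FOSL1, FOSL2, JUN, JUNB and JUND, which make up the core of activator protein 1 (AP-1), together with ATF3, EGR1 and MYC. They were fixed by name. These genes and the further gene lists below were chosen with earlier results of these data known, so their counts are descriptions. Every probe that the array lists for the 10 genes by RefSeq accession or gene symbol was used. This gave 13 probes among 42327 for 10 of 19720 named genes. The study asked how disulfiram (DSF), an aldehyde dehydrogenase inhibitor used against alcohol dependence, and the antimetabolite 5-fluorouracil (5-FU) act on tumor-initiating cells of hepatocellular carcinoma (HCC). Cells positive for the surface antigen EpCAM were sorted from the established HCC lines Huh1 and Huh7, and each line gave 3 groups of 3 one-color arrays: control, DSF at 0.1 µM and 5-FU at 1 µM, the drugs for 48 hours. The methods list copper chloride alongside DSF without stating what the control cells were given, so an effect of DSF and one of copper cannot be told apart. Because the arrays were taken at a single time, the first hour of an immediate early response was not measured.

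AP-1 is a dimer. JUN proteins pair with each other or with FOS proteins through a leucine zipper, whereas FOS proteins need a JUN partner, and the dimers bind a short palindromic site in promoters and enhancers. FOS, FOSB, JUN, JUNB and EGR1 are switched on within minutes of serum, growth factor or stress signals, largely through MAP kinases and serum response factor, and their transcripts decay quickly. FOSL1 and FOSL2 come later and lack the strong activation domain of FOS. ATF3 is a stress-induced member of the same leucine zipper class that usually represses as a homodimer. EGR1 is a zinc finger factor, and MYC drives ribosome biogenesis and growth as a dimer with MAX. In liver, JUN is required for hepatocyte proliferation during regeneration.

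Promoters are shown for the genes that spread most between arrays of a group (FOS, FOSB, EGR1) and for the genes whose drug changes lead the account (JUN, ATF3). RefSeq promoters on build GRCh38.p14 were found for 8 of the 10 genes and the 250 bases before the start were searched on both strands. The letters TGACG, the first part of the cyclic AMP response element TGACGTCA and therefore overlapping it, stood before 7 of the 8 genes, and in 21.2% of 35116 promoters. The full TGACGTCA stood before JUND alone (1.65% of promoters), the variant TGACATCA before JUN and ATF3 (2.37%), and the CArG box bound by serum response factor before EGR1 (1.16%). Neither the AP-1 site TGACTCA (4.2% of promoters) nor the E-box CACGTG (6.34%) was found in these windows. TGACG and TGACATCA were added to the search after the sequences were seen. Capitals mark TGACG and its reverse complement, TGACATCA and the CArG box. The windows were chr14:75278578-75278827 (plus strand) for FOS, chr19:45467746-45467995 (plus) for FOSB, chr5:138465229-138465478 (plus) for EGR1, chr1:58784048-58784297 (minus) for JUN and chr1:212565157-212565406 (plus) for the upstream start of ATF3.
FOS: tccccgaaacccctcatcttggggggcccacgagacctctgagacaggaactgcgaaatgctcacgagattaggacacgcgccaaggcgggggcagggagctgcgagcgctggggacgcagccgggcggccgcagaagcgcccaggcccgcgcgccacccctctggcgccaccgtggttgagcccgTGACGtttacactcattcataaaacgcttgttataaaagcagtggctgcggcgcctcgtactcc
FOSB: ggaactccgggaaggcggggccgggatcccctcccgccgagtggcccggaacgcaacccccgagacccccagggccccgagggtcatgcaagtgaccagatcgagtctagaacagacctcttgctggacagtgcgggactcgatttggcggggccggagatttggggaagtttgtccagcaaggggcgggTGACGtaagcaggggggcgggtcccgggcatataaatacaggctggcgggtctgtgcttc
EGR1: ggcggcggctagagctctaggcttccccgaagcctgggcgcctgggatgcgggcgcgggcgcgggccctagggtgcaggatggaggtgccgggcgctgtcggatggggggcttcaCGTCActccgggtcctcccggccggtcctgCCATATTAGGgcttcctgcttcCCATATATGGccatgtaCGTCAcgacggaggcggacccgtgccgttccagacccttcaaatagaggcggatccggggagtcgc
JUN: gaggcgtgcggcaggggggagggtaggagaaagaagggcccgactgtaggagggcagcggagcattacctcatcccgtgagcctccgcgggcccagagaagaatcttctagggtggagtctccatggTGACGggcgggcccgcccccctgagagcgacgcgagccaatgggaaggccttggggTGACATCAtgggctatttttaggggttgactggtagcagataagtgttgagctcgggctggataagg
ATF3: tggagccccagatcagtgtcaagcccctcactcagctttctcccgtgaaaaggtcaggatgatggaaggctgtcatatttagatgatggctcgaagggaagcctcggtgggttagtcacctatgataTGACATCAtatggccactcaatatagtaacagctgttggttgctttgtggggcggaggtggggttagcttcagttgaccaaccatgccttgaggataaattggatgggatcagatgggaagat

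All values are log2 of the processed spot signal minus the array's own 75th percentile, so 0 is the 75th percentile of the probes and each unit is a doubling. Between 25121 and 29870 probes per array lay well above background by the scanner's own flag, and 29760 probes (15754 genes by their brightest probe) were tested in a single limma fit of all 18 arrays. A call is a Benjamini-Hochberg adjusted p under 0.05. The sorted cells carried liver markers, since 8 of 8 hepatocyte or HCC genes were well above background on all 18 arrays, with group means of ALB from 8.07 to 8.62 and of EPCAM from 1.96 to 5.74. Of the fibroblast markers 0 of 4 were above background on all arrays, against 3 of 4 leukocyte markers (CD3E on 3 arrays) and 2 of 3 endothelial markers. The summed linear level over group means, with the 75th percentile as 1, was 635 to 1200 for the hepatocyte list, 1.74 to 5.45 for leukocytes, 0.0278 to 0.263 for fibroblasts and 0.261 to 0.548 for endothelium. With DSF in Huh1 7 of the 8 hepatocyte markers fell (52.9% of all genes called), by a list median of 0.60 on the log2 scale. With 5-FU in Huh7 the leukocyte marker CD68 rose by 1.59, the endothelial marker PECAM1 by 1.02 and the fibroblast marker DCN at least 7.2-fold. The endothelial marker VWF fell there by 0.52, and PTPRC, CD14, CDH5 and COL1A1 were not called. The part of these marker changes in the changes below was not tested. In RNA from whole sorted populations, fewer cells with a transcript and less of it per cell cannot be told apart. Slides and lines went together: the Huh1 controls, the Huh1 5-FU arrays and Huh1 DSF arrays 1 and 2 shared the first slide, Huh1 DSF array 3 lay on the second with the Huh7 controls, the Huh7 5-FU arrays and Huh7 DSF array 1, and Huh7 DSF arrays 2 and 3 were alone on the third. Several arrays of a group were nearly alike. Over 403 probes printed in 10 spots, Huh1 5-FU arrays 2 and 3 differed by an SD of 0.0243 where spot noise alone gives 0.0221, and the other pairs of that group by 8.37 to 8.43 times spot noise. The 3 Huh7 control arrays differed from each other by 1.42 to 1.54 times spot noise, Huh1 DSF arrays 1 and 2 by 1.53 times and Huh7 DSF arrays 2 and 3 by 1.58 times. The methods speak of independent experiments and the labels name no cultures, so p-values measure the spread between these arrays, which may be technical. The 18 arrays were kept as labelled. Averaging the close arrays leaves 13 samples, with 3 for Huh1 control, 2 each for Huh1 DSF, Huh1 5-FU and Huh7 DSF, 3 for Huh7 5-FU and 1 for Huh7 control, whose spread is then taken from the other groups. Calls of the 10 genes that end under this averaging are given with their adjusted p. Against 6 spike-in controls, the 75th percentile of the 5-FU arrays was 0.82 log2 above that of controls in Huh1 and 0.99 above it in Huh7, and that of the DSF arrays differed by 0.13 and −0.17. Changes with 5-FU are therefore changes relative to the bulk of probes.

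**Figure D1:**
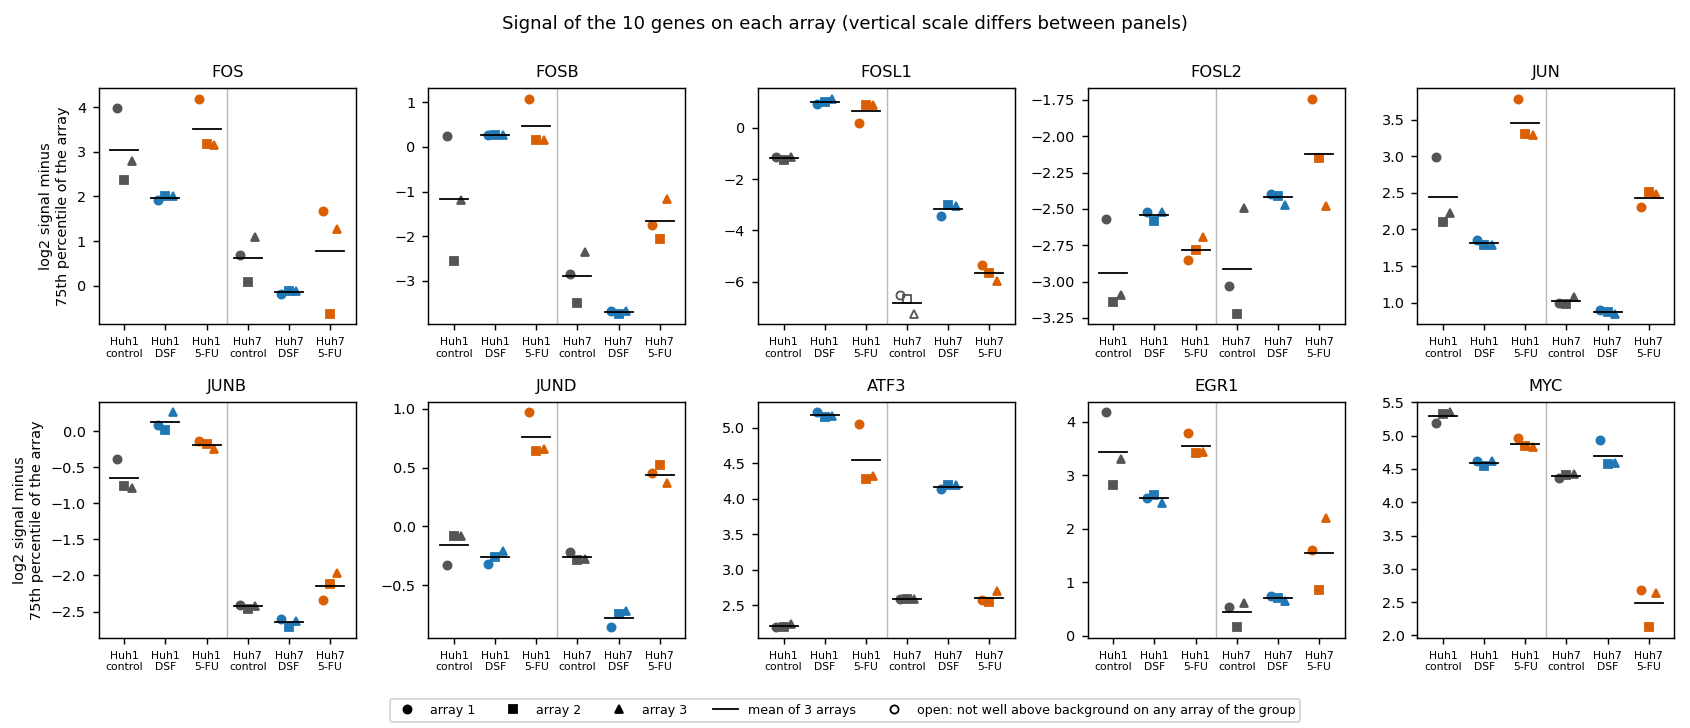
Normalized log2 signal of the brightest probe of each gene on the 18 arrays, by line and treatment. Points are arrays and bars are group means. FOS and FOSB scatter widely among control and 5-FU arrays and lie close together in both DSF groups, while ATF3 separates DSF from control in both lines.

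ATF3 showed the largest rise with DSF in Huh1 of the 10 genes, and its response to 5-FU differed between the lines. In Huh1 its signal was 2.19, 2.19 and 2.24 in the control arrays, 5.22, 5.16 and 5.17 with DSF and 5.05, 4.28 and 4.32 with 5-FU. Every treated Huh1 array stood above every control array. In Huh7 it was 2.59 on all 3 control arrays, 4.14, 4.19 and 4.19 with DSF, and 2.57, 2.55 and 2.70 with 5-FU. The Huh7 5-FU and control arrays overlapped. ATF3 rose by 2.97 ± 0.14 log2 (SE; adjusted p = 1.87e-09) with DSF in Huh1 and by 1.59 ± 0.14 (9.54e-07) in Huh7. With 5-FU it rose by 2.34 ± 0.14 in Huh1 (4.02e-08), against 0.02 ± 0.14 in Huh7 (0.92). The response in Huh7 minus that in Huh1 was −1.39 for DSF (1.12e-04) and −2.32 for 5-FU (1.53e-06), each past the threshold. With spikes as the scale, ATF3 in Huh7 after 5-FU passed the threshold at 1.00 (5.21e-05).

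The 4 ATF3 probes did not move by the same amount. The probes A_33_P3214105 and A_24_P33895 followed the brightest probe, with rises of 2.74 and 3.12 for DSF in Huh1, 1.38 and 1.62 for DSF in Huh7, and 2.09 and 2.41 for 5-FU in Huh1. The fourth probe, A_33_P3214096, rose by 0.74 ± 0.17 with DSF in Huh1 (adjusted p = 0.00215) and by 0.64 ± 0.17 with 5-FU (0.00569). In Huh7 that probe gave 0.26 for DSF (0.207). None of the 4 passed with 5-FU in Huh7, where the other 3 probes gave −0.12, −0.14 and 0.14.

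Genes of amino acid and endoplasmic reticulum stress were set beside ATF3. DDIT3 encodes the pro-apoptotic factor CHOP, TRIB3 a pseudokinase, CHAC1 a glutathione-degrading enzyme, ASNS asparagine synthetase, SESN2 a sestrin, and ATF4 the factor that activates them. With DSF 5 of the 6 rose in Huh1 and 0 fell (52.9% of all genes were called), whereas in Huh7 1 rose and 2 fell (53.4%). DDIT3 stood at 0.35, 0.39 and 0.35 in Huh1 control arrays and at 3.03, 2.96 and 3.16 with DSF, a rise of 2.69 (adjusted p = 1.59e-09). In Huh7 DDIT3 went from 2.07, 2.09 and 2.12 to 2.77, 2.47 and 2.48, a rise of 0.48 (0.0067). The Huh7 controls thus already lay far above the Huh1 controls for DDIT3. All 6 stress genes were higher in Huh7 than in Huh1 controls (39.4% of all genes were), by a median of 1.55. With 5-FU 3 rose and 1 fell in Huh1 (55.1% of all genes were called), and 0 rose and 5 fell in Huh7 (63.7%), among them ASNS by 2.89 and CHAC1 by 3.12 on the log2 scale. These falls are relative to the 75th percentile, which lay 0.99 log2 above Huh7 controls against the spikes. The Huh7 changes of ATF4 (−0.95), TRIB3 (−0.87) and SESN2 (−0.28) were smaller than that shift. ATF3 itself was higher in Huh7 controls by 0.38 (adjusted p = 0.0281), a call that was lost in 9 of 32 alternatives (0.186 with close arrays averaged).

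**Figure D2:**
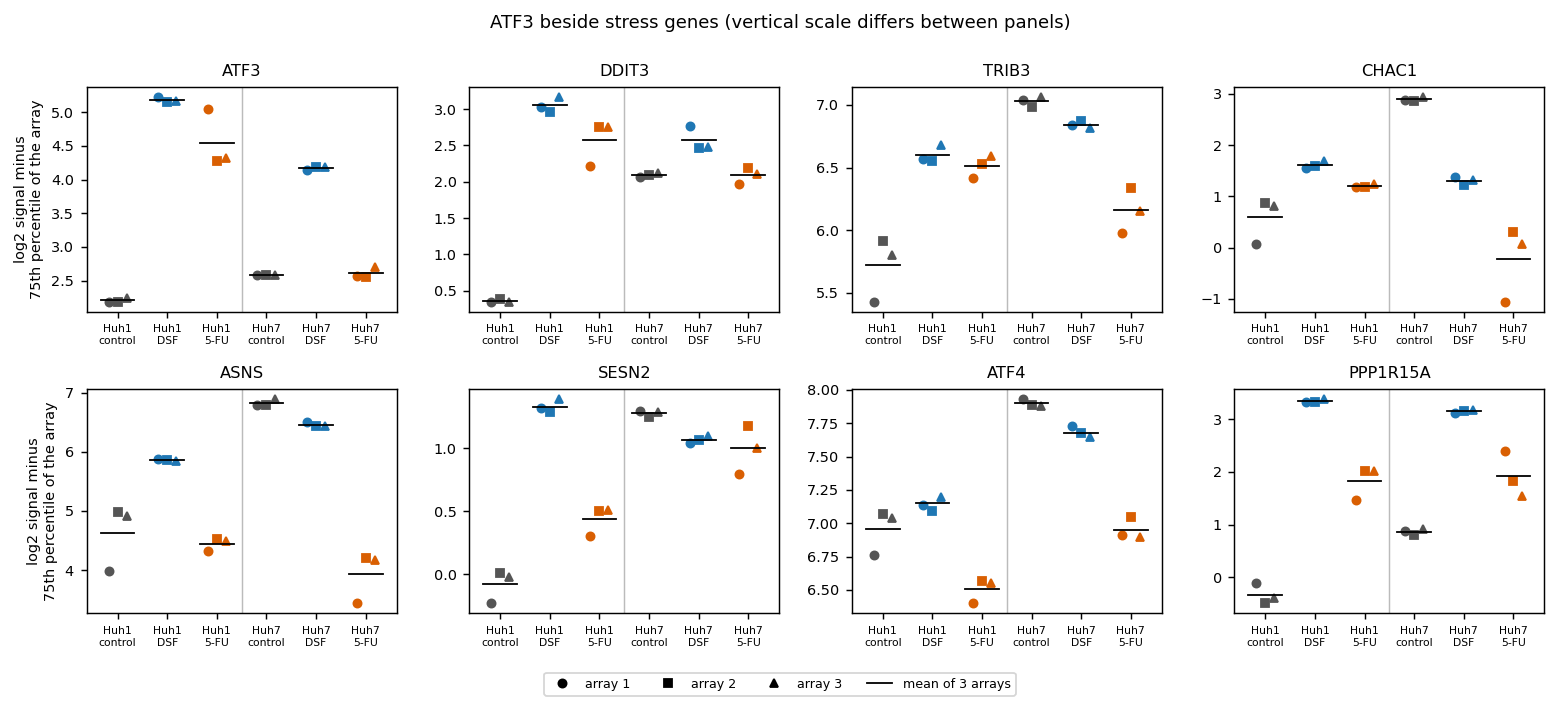
Normalized log2 signal of ATF3 and 7 stress genes on each array, with bars for group means. In Huh1 the DSF arrays lie above the control arrays for all 8 genes, while in Huh7 this holds for ATF3, DDIT3 and PPP1R15A.

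The FOS family split into members that rose and members that did not pass. FOSL1, which encodes FRA-1, rose with both drugs in Huh1. Its signal was −1.16, −1.25 and −1.13 in Huh1 control arrays, 0.91, 0.98 and 1.13 with DSF and 0.19, 0.89 and 0.89 with 5-FU. The treated arrays all stood above 0 and the controls all below −1. The rise was 2.19 ± 0.21 log2 with DSF (adjusted p = 1.97e-06) and 1.84 ± 0.21 with 5-FU (9.41e-06). In Huh7 the FOSL1 probe was not well above background on any control array (measured −6.51, −6.68 and −7.23). It reached −3.42, −3.02 and −3.06 with DSF, at least 7.05-fold higher (adjusted p = 1.8e-08). With 5-FU it was above background on 2 of 3 arrays (−5.35, −5.64 and −5.96), at least 1.26-fold higher (3.37e-04), a call lost when background was modeled with normexp (−0.11, adjusted p = 0.481). These bounds set the mean of the brighter group against the lowest signal flagged as above background. FOSL1 was at least 28-fold lower in Huh7 than in Huh1 controls (adjusted p = 7.5e-12).

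FOS itself was not called with either drug in either line. Its signal was 3.98, 2.36 and 2.80 in Huh1 control arrays, 1.92, 2.00 and 2.00 with DSF, and 4.19, 3.17 and 3.16 with 5-FU. All 3 DSF arrays lay below all 3 controls, but the controls covered 1.62 log2. In Huh7 it was 0.70, 0.09 and 1.1 in controls, −0.19, −0.12 and −0.11 with DSF, and 1.67, −0.62 and 1.27 with 5-FU. The DSF arrays again all lay below the controls, and the 5-FU arrays overlapped them. The changes with DSF were −1.08 ± 0.52 in Huh1 (adjusted p = 0.112) and −0.77 ± 0.52 in Huh7 (0.24), and with 5-FU 0.46 and 0.14.

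FOSB, whose product can replace FOS in the dimer, rose in Huh1 with DSF by 1.44 ± 0.52 (adjusted p = 0.0359) and with 5-FU by 1.64 ± 0.52 (0.0176). Its Huh1 control arrays read 0.24, −2.55 and −1.20, the DSF arrays 0.26, 0.27 and 0.27 and the 5-FU arrays 1.08, 0.16 and 0.16. The first control array thus equaled the DSF arrays to within 0.03 and lay above 5-FU arrays 2 and 3. Without Huh1 control array 2 the DSF change was 0.75 (adjusted p = 0.183) and the 5-FU change 0.95 (0.0849), and 12 of 33 alternatives ended the DSF call. With close arrays averaged neither passed (0.136 for DSF and 0.0661 for 5-FU). In Huh7 FOSB read −2.84, −3.49 and −2.35 in controls, −3.67, −3.73 and −3.68 with DSF and −1.74, −2.07 and −1.17 with 5-FU, changes of −0.80 (0.221) and 1.23 (0.0561). The 5-FU result was the same in only 23 of 33 alternatives. All 3 DSF arrays lay below, and all 3 5-FU arrays above, the Huh7 controls. FOSL2 (FRA-2) rose with 5-FU in Huh7 by 0.79 ± 0.20 (0.00326; 0.0524 with close arrays averaged), with arrays at −1.74, −2.15 and −2.48 against −3.03, −3.22 and −2.49. Its DSF changes, 0.39 in Huh1 (0.124) and 0.49 in Huh7 (0.055), did not pass. The Huh7 result was the same in 27 of 33 alternatives.

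JUN and JUND both rose with 5-FU in both lines, and with DSF JUN fell in Huh1 and JUND in Huh7. JUN encodes c-Jun, the main activating subunit. In Huh1 its signal was 2.99, 2.10 and 2.22 in controls and 3.79, 3.30 and 3.29 with 5-FU, a rise of 1.02 ± 0.18 (adjusted p = 3.66e-04). In Huh7 it was 0.99, 0.98 and 1.08 in controls and 2.31, 2.51 and 2.48 with 5-FU, a rise of 1.41 ± 0.18 (1.21e-05). No 5-FU array overlapped a control array of its line. JUND, which is expressed more steadily than the other members in many cells, went from −0.33, −0.08 and −0.08 to 0.97, 0.64 and 0.66 in Huh1. In Huh7 it went from −0.22, −0.29 and −0.28 to 0.45, 0.52 and 0.37. Its rises were 0.92 ± 0.09 (2.44e-06) and 0.70 ± 0.09 (1.41e-05). The rises of JUN and JUND kept their direction and call in all 33 alternatives in both lines.

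DSF arrays read lower for JUN: 1.85, 1.79 and 1.79 in Huh1 and 0.90, 0.87 and 0.85 in Huh7. JUN fell by 0.63 on the log2 scale in Huh1 (adjusted p = 0.0119), a call lost in 3 of 33 alternatives, among them the close arrays averaged (0.0825). Without Huh1 control array 1 JUN fell by 0.35 (0.0341). In Huh7 the change was −0.14 (0.546). JUND was −0.32, −0.26 and −0.21 with DSF in Huh1 (−0.10, adjusted p = 0.401) and −0.86, −0.75 and −0.72 in Huh7, where it fell by 0.52 (4.1e-04; 0.0592 with close arrays averaged). Set directly against 5-FU, the DSF groups were lower for JUN by 1.65 in Huh1 (5.45e-06) and 1.56 in Huh7 (4.9e-06), and for JUND by 1.02 (8.3e-07) and 1.22 (6.67e-08).

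JUNB, a weaker activator that can oppose JUN, rose with DSF in Huh1. Its arrays read −0.39, −0.76 and −0.79 in controls and 0.09, 0.02 and 0.26 with DSF, a change of 0.77 ± 0.11 (adjusted p = 6.26e-05) with no overlap. In Huh7 the controls read −2.41, −2.46 and −2.42 and the DSF arrays −2.61, −2.72 and −2.63, a change of −0.22 (0.113). The difference between the lines was −0.99 (2.11e-04). With 5-FU JUNB rose by 0.46 in Huh1 (0.00366) and by 0.29 in Huh7 (0.0379), the latter a call that 10 of 33 alternatives ended (0.283 with close arrays averaged).

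EGR1 varied widely among control arrays. It read 4.18, 2.82 and 3.31 in Huh1 controls, 2.58, 2.63 and 2.49 with DSF and 3.80, 3.42 and 3.43 with 5-FU. The DSF arrays lay below all controls, a fall of 0.87 on the log2 scale (adjusted p = 0.0394) that dropped to 0.50 (0.19) without Huh1 control array 1 and that 13 of 33 alternatives ended (0.152 with close arrays averaged). In Huh7 it read 0.54, 0.16 and 0.62 in controls, 0.75, 0.71 and 0.66 with DSF and 1.61, 0.85 and 2.20 with 5-FU. All 5-FU arrays lay above the controls, a rise of 1.11 ± 0.32 (0.00839; 0.144 with close arrays averaged), and the DSF change was 0.27 (0.52). Of its corepressors NAB1 and NAB2, DSF left both uncalled in Huh1 (0.10 and −0.10) and lowered both in Huh7 (−0.30 and −0.28).

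MYC was the member with the largest fall. Its signal was 5.19, 5.33 and 5.35 in Huh1 controls, 4.62, 4.55 and 4.62 with DSF and 4.96, 4.84 and 4.83 with 5-FU. Both drugs lay below all Huh1 controls. In Huh7 it was 4.36, 4.41 and 4.42 in controls, 4.93, 4.58 and 4.59 with DSF and 2.68, 2.12 and 2.64 with 5-FU. Here DSF arrays lay above, and 5-FU arrays far below, the controls. MYC fell by 1.91 on the log2 scale with 5-FU in Huh7 (adjusted p = 1.87e-08), a call kept in all 33 alternatives, and by 0.41 in Huh1 (0.0157; 0.115 with close arrays averaged). On the spike-in scale the Huh1 value turned to 0.41 (0.0777), while the Huh7 fall remained. With DSF it fell by 0.70 in Huh1 (4.8e-04) and stood 0.31 higher in Huh7 (0.0626). The latter result was the same in only 25 of 33 alternatives, with adjusted p down to 0.0112, and passed with the slide as a term (0.54, adjusted p = 0.0323). Responses differed between the lines by 1.00 for DSF (5.95e-04) and −1.50 for 5-FU (2.42e-05).

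The counts of listed MYC targets, genes of ribosome assembly, nucleotide synthesis and metabolism, also differed between the lines. With DSF 1 of 15 rose and 6 fell in Huh1 (52.9% of all genes called), and 10 rose and 1 fell in Huh7 (53.4%). The median change was −0.14 in Huh1 and 0.37 in Huh7, against −0.02 and 0.04 over all genes. BOP1, a pre-ribosome assembly factor, fell by 0.44 on the log2 scale in Huh1 and rose by 0.77 in Huh7, and NOP56, a small nucleolar RNP subunit, gave −0.15 (adjusted p = 0.053) and rose by 0.83. The response was higher in Huh7 for 12 of the 15 and lower for 0, where 24.5% of all genes were higher and 46.5% were called. With 5-FU 0 rose and 10 fell in Huh1 (55.1%), and 2 rose and 9 fell in Huh7 (63.7%). The median change with 5-FU was −0.39 in Huh1 and −0.2 in Huh7. These changes are relative to the bulk of probes. Against the spikes the 75th percentile lay 0.82 log2 above controls in Huh1 and 0.99 in Huh7. Values of the targets on the spike-in scale are not given here, so a loss of their transcripts is not shown. The 5-FU response was higher in Huh7 for 4 of the 15 and lower for 0 (43.8% of all genes called). For MYC itself the 5-FU response in Huh7 minus that in Huh1 was −1.5. Whether the changes of the targets depend on MYC was not tested. With 5-FU in Huh1 and Huh7, NPM1 (nucleophosmin) fell by 0.79 and 0.98 and LDHA (lactate dehydrogenase) by 0.78 and 0.87. SHMT2 (mitochondrial serine hydroxymethyltransferase) fell by 1.12 and 1.05, and FBL (fibrillarin) by 0.41 and 0.57. ODC1, the first enzyme of polyamine synthesis, rose with DSF by 0.53 and 1.12. Of 10 MYC partners and antagonists, 1 rose and 4 fell with DSF in Huh1 (52.9% of all genes called) and 2 rose and 5 fell in Huh7 (53.4%). With 5-FU 3 rose and 5 fell in Huh1 (55.1%), and 3 rose and 4 fell in Huh7 (63.7%). The Huh1 falls with 5-FU include MYCN, which was not well above background in either group compared. The antagonists MXD3 and MXD4 were called lower with DSF in both lines, in Huh7 by 0.83 and 0.97, and with 5-FU MXI1 fell by 1.45 in Huh7. With 5-FU the antagonist MXD1 rose by 0.84 in Huh1 and 0.44 in Huh7, and MLX, a relative of MAX, by 0.40 and 0.53.

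**Figure D3:**
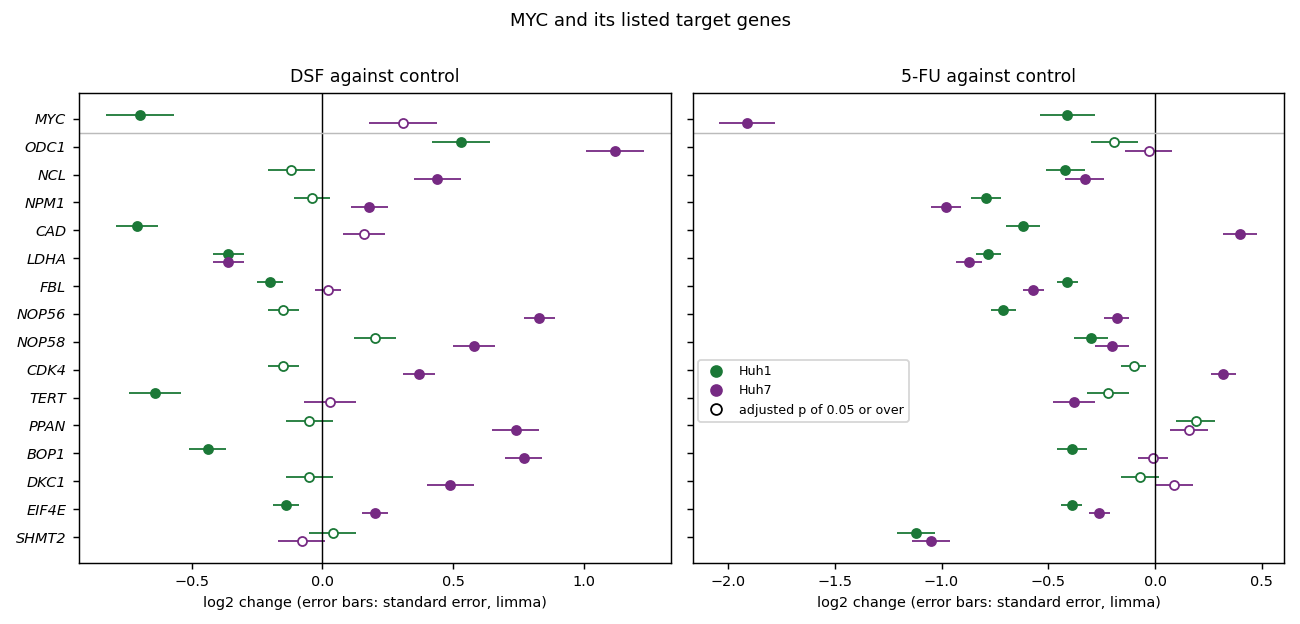
Log2 change against control of MYC (top) and 15 listed target genes with DSF (left) and 5-FU (right) in each line, with standard errors from limma; filled points passed an adjusted p of 0.05. With DSF most points of Huh7 lie to the right of those of Huh1, and with 5-FU most targets lie below 0 in Huh1.

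Counted over the 10 genes, DSF raised 4 and lowered 3 in Huh1 (52.9% of all genes were called) and raised 2, FOSL1 and ATF3, and lowered 1, JUND, in Huh7 (53.4%). The share in Huh1 was above and in Huh7 below that of all genes. DSF and control arrays did not overlap for 8 of the 10 genes in Huh1 (68.1% of all genes) and for 10 in Huh7 (69.6%), and 5-FU and control arrays for 6 in Huh1 (62.7%) and 8 in Huh7 (72.1%). 5-FU raised 6 and lowered 1 in each line, against 55.1% called in Huh1 and 63.7% in Huh7, and 26% and 32.6% of all genes called higher. Set directly against 5-FU, DSF groups were higher for 2 and lower for 4 in Huh1 (56% of all genes called) and higher for 3 and lower for 5 in Huh7 (65.3%), with no overlap for 9 (70% of all genes) and 8 (67.5%). With close arrays averaged FOS, JUNB, ATF3 and EGR1 in Huh1 (0.112, 0.157, 0.0799 and 0.115) and EGR1 in Huh7 (0.138) no longer passed. In Huh7 the 3 that were higher were MYC by 2.22, FOSL1 by 2.48 and ATF3 by 1.57. The response differed between the lines for 6 of the 10 genes with DSF (46.5% of all genes) and for 2 with 5-FU (43.8%). On the spike-in scale the values of FOSL1, JUNB and ATF3 for DSF against 5-FU in Huh1 turned negative (−0.34, −0.38 and −0.06).

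**Figure D4:**
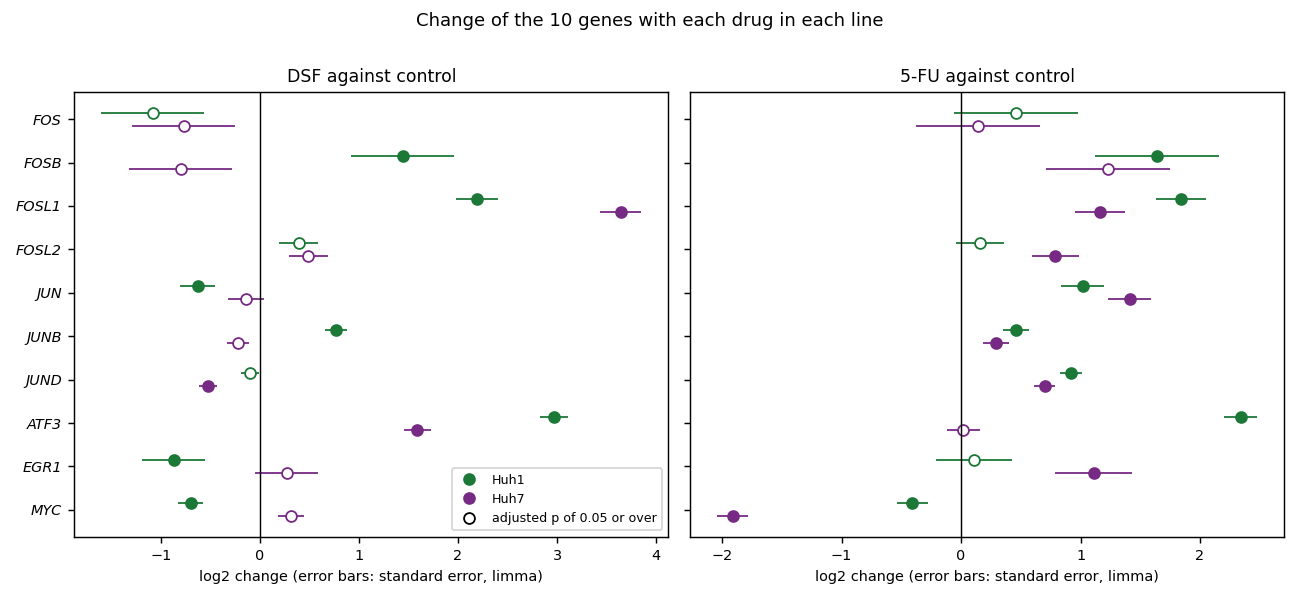
Log2 change of each gene against control with DSF (left) and 5-FU (right) in Huh1 and Huh7, with standard errors from limma; open points had an adjusted p of 0.05 or over. FOSL1 and ATF3 lie furthest right with DSF in both lines, and MYC in Huh7 lies furthest left with 5-FU. The FOSL1 points of Huh7 rest on controls not well above background.

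In untreated cells most of these genes were lower in Huh7 than in Huh1. Of the 10, 7 were lower and 1 was higher in Huh7 controls (78.2% of all genes were called, 38.8% lower). Apart from FOSL1, the differences were −3.00 for EGR1 (adjusted p = 8.11e-07), −2.42 for FOS (7.82e-04), −1.78 for JUNB (1.85e-09), −1.72 for FOSB (0.0084; −1.01 without Huh1 control array 1 and 0.113 with close arrays averaged), −1.42 for JUN (5.75e-06) and −0.90 for MYC (1.7e-05). FOSL2 (0.02, adjusted p = 0.924) and JUND (−0.10, adjusted p = 0.355) were not called. EGR1, FOS, FOSL1, JUNB, JUN, MYC and ATF3 did not overlap between the lines, 7 of the 10 genes where 84.9% of all genes did not overlap. The controls of the lines lay on different slides, so line and slide cannot be told apart by the controls alone. With the slide as a term, which can be estimated only through the DSF groups that span slides, 5 genes were called.

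FOS, FOSB and EGR1 were among the genes that differed most between arrays of a group. Over 12621 genes well above background on all 18 arrays, the median of the pooled within-group SD was 0.109 log2. FOS, with 0.69, ranked 19 from the top, FOSB, with 0.68, ranked 21, and EGR1, with 0.42, ranked 184. In Huh1 controls their SDs were 0.84, 1.40 and 0.69, and in Huh7 5-FU arrays 1.22, 0.46 and 0.68. The Huh1 DSF arrays gave 0.05, 0.01 and 0.07, and the Huh7 DSF arrays 0.04, 0.03 and 0.05. JUND (0.11) and JUNB (0.14) lay nearer the median of all genes. Huh1 control array 1 stood apart from array 2, with 180 of the 12621 genes over 1 log2 apart, among them EGR1, FOS and FOSB and also DUSP1, KLF2 and ZFP36, other immediate early genes. Between Huh7 DSF arrays 1 and 2, on different slides, 111 genes differed by that much and 0 of the 9 members measured here did. The DSF groups include the close pairs named above. Over all genes the median SD was 0.0522 in Huh1 DSF arrays against 0.0846 in Huh1 controls, and 0.0888 in Huh7 DSF arrays against 0.0381 in Huh7 controls.

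**Figure D5:**
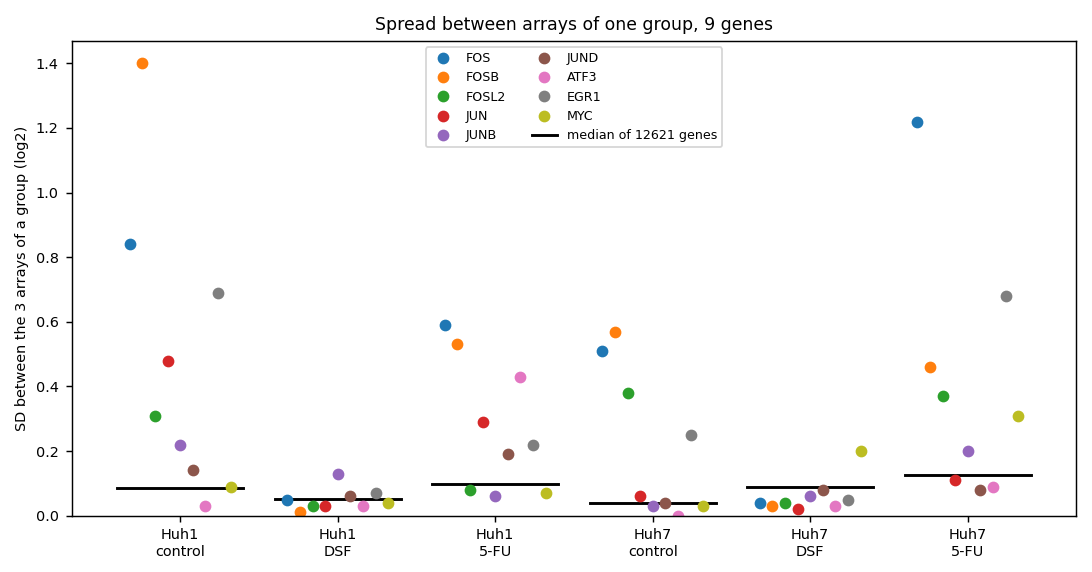
SD of normalized log2 signal between the 3 arrays of each group for the 9 genes well above background on all arrays, with the median over 12621 genes as a black line. FOS, FOSB and EGR1 stand well above the line in control and 5-FU groups and at or near it in both DSF groups.

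Other leucine zipper partners of AP-1 were mostly called higher with DSF in Huh1. Of 8 tested, 6 rose and 0 fell with DSF in Huh1 (52.9% of all genes called), and 4 rose and 3 fell in Huh7 (53.4%). With 5-FU 3 rose in Huh1 (55.1%) and 2 in Huh7 (63.7%), and 1 fell in each. The share called was near that of all genes in Huh1 and below it in Huh7. Of all genes 26% in Huh1 and 32.6% in Huh7 were called higher with 5-FU. BATF, a leucine zipper partner of JUN known from lymphocytes, read 0.81, 1.74 and 1.65 in Huh1 controls and 3.66, 3.68 and 3.77 with DSF, a rise of 2.30 (adjusted p = 2.03e-05). In Huh7 it was not well above background on any control array and rose at least 46-fold with DSF (−0.41, −0.45 and −0.54; 2.56e-09) and at least 3.5-fold with 5-FU. BATF was at least 167-fold lower in Huh7 than in Huh1 controls. The small MAF genes, whose products lack an activation domain, rose with DSF in both lines, MAFF by 3.74 and 1.24, MAFK by 1.70 and 0.82 and MAFG by 0.59 and 0.50.

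Of 24 other immediate early genes tested, 14 rose with DSF in each line, with 3 lower in Huh1 (52.9% of all genes called) and 2 in Huh7 (53.4%). These rises include EGR2, which was not above background on any Huh7 control array and whose bound there was 1-fold. In Huh1 EGR2 read −3.91, −7.68 and −7.71 in controls and −3.97, −3.94 and −3.85 with DSF, so the groups overlapped. With 5-FU 19 rose in Huh1 (55.1%) and 14 in Huh7 (63.7%), with 1 lower in each. Of all genes 26% in Huh1 and 32.6% in Huh7 were called higher with 5-FU. Their medians were 1.06 and 0.48 for DSF and 0.84 and 0.62 for 5-FU, where the medians over all genes lay between −0.02 and 0.04. PPP1R15A, a phosphatase subunit that restores translation after stress, read −0.10, −0.49 and −0.40 in Huh1 controls and 3.33, 3.33 and 3.38 with DSF, and in Huh7 0.88, 0.81 and 0.91 against 3.12, 3.16 and 3.18. CCN1, a secreted matrix protein, read 1.70, 1.64 and 1.99 in Huh7 controls, 4.82, 4.70 and 4.68 with DSF and 4.70, 3.53 and 4.01 with 5-FU, with no overlap. HBEGF, a ligand of the epidermal growth factor receptor, rose by 2.91 with 5-FU in Huh7 (adjusted p = 6.08e-11) and by 1.89 with DSF (4.42e-09). The nuclear receptor gene NR4A1 was not above background in either control group and rose at least 2.68-fold with DSF in Huh1 and at least 1.14-fold in Huh7, where 2 of 3 DSF arrays measured it.

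Among 16 genes listed as AP-1 targets, 10 rose and 0 fell with DSF in Huh1 (52.9% of all genes called) and 11 rose and 3 fell in Huh7 (53.4%). The matrix metalloproteinase genes MMP1, MMP3 and MMP10 were not above background on any control array of either line. With DSF MMP10 read −1.62, −1.78 and −1.82 in Huh1, at least 14.1-fold higher, and 0.06, 0.08 and 0.06 in Huh7, at least 66.5-fold higher. MMP1 rose at least 28.8-fold in Huh1 and 75.6-fold in Huh7, and MMP3 at least 3.91-fold and 11.1-fold. With 5-FU MMP3 was not above background in either line, and MMP10 rose at least 6.47-fold in Huh7 (−4.82, −2.77 and −2.29) and was not above background in Huh1. CXCL8, an interleukin that attracts neutrophils, rose with both drugs and in Huh7 read −2.65, −2.73 and −2.59 in controls, 0.39, 0.79 and 0.62 with DSF and 0.33, −0.01 and 0.25 with 5-FU. TIMP1, an inhibitor of metalloproteinases, read −5.62, −6.29 and −6.02 in Huh7 controls, where 1 of 3 arrays measured it, −2.50, −2.63 and −2.54 with DSF and −2.61, −2.11 and −2.07 with 5-FU. With 5-FU 7 rose and 1 fell in Huh1 (55.1%), and 9 rose and 2 fell in Huh7 (63.7%), shares called near those of all genes. Of all genes 26% in Huh1 and 32.6% in Huh7 were called higher. MMP3 was the fall in Huh1 and was among the falls in Huh7. It lay at background in the groups compared, so these calls do not show a fall.

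The 16 tested kinases and SRF cofactors upstream of these genes moved in both directions. With DSF 6 rose and 6 fell in Huh1 (52.9% of all genes called) and 5 rose and 3 fell in Huh7 (53.4%). With 5-FU 6 rose and 7 fell in Huh1 (55.1%) and 1 rose and 7 fell in Huh7 (63.7%). MAPK3, which encodes ERK1, fell with both drugs in both lines, in Huh7 by 0.92 with DSF and 0.83 with 5-FU. Its 5-FU fall in Huh7 was smaller than the shift of the 75th percentile against the spikes there (0.99). MAPK7, which encodes ERK5, rose in Huh7 by 0.40 with DSF and 0.73 with 5-FU. The list medians lay between −0.13 and 0.04.

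The genes whose group means followed a member most closely were ranked by Pearson's r over the 6 group means among the 12621 genes, as a description of means that share arrays. PLK3, a stress-induced polo-like kinase, stood nearest to ATF3 (r = 0.99), with means of −0.60, 1.79 and 1.02 in Huh1 and −0.13, 1.03 and −0.11 in Huh7 for control, DSF and 5-FU. HYAL3 followed JUN (0.999), ZNF512 followed JUND (0.993), DHRS7B followed JUNB (0.999) and SGMS1 followed EGR1 (1.0). FLVCR1-DT stood nearest to FOS (0.997), PARP14 to FOSB (0.994), ARHGEF18 to FOSL2 (0.996) and ZXDC to MYC (0.992). Taking the highest r among 12621 genes over only 6 means favors high values. They therefore do not show that these genes are regulated together.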

How the data were processed

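Total RNA of EpCAM+ cells sorted from Huh1 and Huh7 was hybridized by the authors to one-color Agilent arrays, 3 per group. The authors deposited Feature Extraction output with linear spot intensity, background-subtracted and detrended, with a version of 10.7.1.1 per the submitters' notes. The series table they deposited holds the same signal as linear normalized intensity over each array's 75th percentile, within 0.05 log2 of the spot values. Here log2 of the spot intensity was averaged over unflagged spots of a probe and the array's 75th percentile was subtracted. Of 42405 probes 78 were left out as flagged. Probes entered the test if every array of some group had them well above background, in limma 3.58.1 (R 4.3.3) with 6 groups and a Benjamini-Hochberg threshold of 0.05. Tables and figures were made in Python (3.11.15) using matplotlib 3.10.9, pandas 2.3.3 and numpy 2.4.6. A gene stands for its brightest probe. Tested on simulated data for DSF against control in Huh1, with 200 of 29760 probes changed, the fit recovered 72% of changes of 1 log2 and 93% of changes of 2. In the data 13193 probes were called in that comparison, so these rates do not give the sensitivity of the calls reported here. An exact rank test of 3 arrays against 3 cannot give a p below 0.1.

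By accession or by symbol, 25771 of 42405 probes were given a gene name from the RefSeq table, and 27134 probes were listed by accession. Gene symbols alone were taken from that table, and promoter coordinates are those of its own build, GRCh38.p14. From each further list the text names at most the 4 genes with the largest mean change among those called the same way in both lines for a drug, plus short lists in full; TIMP1 with DSF, HBEGF with DSF, BOP1, NOP56, CHAC1 and ASNS, and the rest of the genes in the stress plot, were added after their values were seen. The members and lists were chosen with earlier results of these data known. Alternatives were median, quantile and spike-in scaling, the deposited table, filters on dim probes, slide and replicate number as blocks, values within a slide, trend and robust moderation, fits of the compared groups alone, the mean of a gene's probes and leaving out each of 18 arrays. Added after the data were seen were normexp with an offset of 50 on the spot median signal, close arrays averaged and the Huh7 DSF arrays of the third slide left out. The number of arrays limits the precision.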

Additional observations from a re-analysis of the deposited data

Results flagged for a closer look

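For 8 results the response to a drug differed between the lines by an interaction term in limma (response in Huh7 minus response in Huh1, log2). For DSF these were ATF3 (−1.39), FOSB (−2.24), JUNB (−0.99), JUND (−0.42), FOSL1 (1.45) and MYC (1.00). ATF3 rose less in Huh7, FOSB and JUNB rose in Huh1 and did not pass in Huh7, and JUND fell in Huh7 and did not pass in Huh1. FOSL1 rose in both lines, with the larger fitted change in Huh7. Its level with DSF stayed lower in Huh7 than in Huh1 (−3.17 against 1.01). MYC fell in Huh1 and did not pass in Huh7. For 5-FU the results were ATF3 (−2.32) and MYC (−1.50). Of all genes 46.5% passed this test for DSF and 43.8% for 5-FU, against 6 and 2 of the 10 genes. The FOSL1 value rests on Huh7 controls that were not well above background and turned to −0.81 (adjusted p = 0.00332) with normexp. The FOSB and JUND values did not pass with close arrays averaged (adjusted p = 0.215 and 0.182). The FOSB value has a FOSB control array in Huh1 at 0.24 and others at −2.55 and −1.20, and the JUND call ended with the slide as a term (−0.48, adjusted p = 0.0536).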

How the results depend on the processing

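ATF3 and FOSL1 with DSF in both lines, JUNB and MYC with DSF in Huh1, JUN, JUND and MYC with 5-FU in Huh7 and JUN, JUND, JUNB, ATF3 and FOSL1 with 5-FU in Huh1 kept direction and call in every alternative run. Levels of FOSL1 and BATF in Huh7 controls, and of NR4A1, MMP1, MMP3 and MMP10 in the controls of both lines, are at background. Planned normexp on the mean signal was not run, since the scanner files used here do not hold that column, and the spot median signal was used instead. No cause of the changes below was tested.

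The count of the 10 genes called with DSF in Huh1 (7) was 4 with only the compared groups and with close arrays averaged. With DSF in Huh7 (3) it was 5 with trend and robust moderation and with only the compared groups, and 3 to 5 leaving out each array (5 without Huh7 5-FU array 1). With 5-FU in Huh7 (7) it was 4 with close arrays averaged. With 5-FU in Huh1, FOSB and MYC also did not pass with close arrays averaged. For DSF against 5-FU in Huh1 (6) it was 3 with the slide as a block and within slides, 2 with close arrays averaged, and 3 to 7 leaving out each array (3 without Huh1 DSF array 3). Between control lines (8) it was 5 with the slide as a block. For the 5-FU interaction (2) it was 2 to 4 leaving out each array (4 without Huh7 control array 3). Counts over all tested probes fell from 13946 to 4567 (DSF in Huh7) and from 12033 to 4375 (DSF interaction) with close arrays averaged, and the median of all probes moved to 0.7912 (Huh1) and 0.9365 (Huh7) for 5-FU with spike-in scaling.

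Some values changed sign. With spike-in scaling JUND for DSF in Huh1 gave 0.0317, MYC for 5-FU in Huh1 0.41, FOSL1, FOSL2, JUNB and ATF3 for DSF against 5-FU in Huh1 −0.34, −0.46, −0.38 and −0.0613, and FOS and FOSL2 for the DSF interaction −0.00611 and −0.21. With normexp FOSL2 for 5-FU in Huh1 gave −0.0358, FOSL1 for 5-FU in Huh7 −0.11, FOSL2 between control lines −0.00925 and FOSL1 for the DSF interaction −0.81. FOSL2 between control lines gave −0.14 with median scaling, −0.1 with quantile normalization and −0.00357 with the slide as a block, and ATF3 for 5-FU in Huh7 −0.0195 with quantile normalization and −0.0246 as the mean of its probes. Leaving out each array moved EGR1 for 5-FU in Huh1 from −0.2 to 0.48, FOS for 5-FU in Huh7 from −0.31 to 0.84, ATF3 for 5-FU in Huh7 from −0.0301 to 0.0486, FOSB for DSF against 5-FU in Huh1 from −0.36 to 0.11, FOSL2 between control lines from −0.19 to 0.2, FOS and FOSL2 for the DSF interaction from −0.17 to 0.64 and from −0.0839 to 0.31, and FOS and FOSB for the 5-FU interaction from −0.79 to 0.38 and from −1.11 to 0.28.

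The replicate numbers did not pair the arrays: over 45 pairs of same-numbered arrays deviations correlated between −0.0931 and 0.104, and 1 pair exceeded 0.1. With the replicate block the counts were 7 (DSF, Huh1), 3 (DSF, Huh7), 7 (5-FU, Huh1), 8 (5-FU, Huh7), 6 and 8 (DSF against 5-FU), 8 (control lines), 7 (DSF interaction) and 2 (5-FU interaction).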
